A study of Mus musculus with 7 samples.

Results

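Regions of open chromatin that were present in both untreated and RANKL-treated RAW264.7 cells were examined for graded change, that is, for peaks that gained or lost height or width within regions open in both groups. RAW264.7 is a mouse macrophage line that forms osteoclasts, the bone-resorbing cells, when given RANKL; the labels call it monocyte-derived and name bone marrow as its source. The assay was ATAC-seq: a transposase cuts accessible DNA and tags the cut ends for sequencing. The comparison set 2 groups of 2 libraries against each other: untreated cells (untreated 1 and 2) and cells given RANKL at 50 ng/ml for 4 h (RANKL 1 and 2), with no other agent in either group. The series also holds 2 libraries of RANKL with the BET inhibitor I-BET (500 nM) and 1 of I-BET without RANKL. The overlapping or adjoining peaks of the 4 peak lists were joined into 271401 regions on mm10, and the 47356 regions with a peak in every one of the 4 lists were kept as shared regions. All 7 lists of the series gave 344401 regions.

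RANKL is the cytokine of the TNF family that commits macrophage precursors to the osteoclast fate. Its receptor RANK signals through Traf6 to NF-kB and to the kinases that feed AP-1 (Fos and Jun dimers), and these factors together switch on Nfatc1, the transcription factor that drives the osteoclast programme. Commitment also requires that repressors of the programme, such as Irf8 and Bcl6, are silenced, a step to which Prdm1 contributes. The 4 h time point falls in the early phase, before cells fuse and make the enzymes that resorb bone.

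Promoter sequences are shown first for 5 genes whose transcription start lay in a shared region that changed rank by the rule given below, because changed regions at promoters were few. Each is the 250 bases before an annotated start in RefSeq (GRCm38.p6, the assembly of mm10), 5′ to 3′ on the gene's strand, with capitals at matches to any of 6 motifs searched on both strands: TGANTCA (AP-1), TGACGTCA (CRE), CACGTG (E-box), CCGGAAGT (Ets), GGGCGG (Sp1) and a narrow form of the NF-kB site (GGG, any 2 bases, then TTTCC). Looser forms of the NF-kB site were not searched, so lower case does not say that a window lacks one. Rcan1 (inhibitor of the phosphatase calcineurin, which activates Nfatc1; chr16:92400079-92400328, minus strand), Tnfsf13b (the TNF family ligand BAFF; chr8:10006383-10006632, plus strand) and Tnip3 (an inhibitor of NF-kB signalling; chr6:65590148-65590397, plus strand) lay in regions that ranked higher with RANKL. Clcn7 (the chloride/proton exchanger of the resorption pit; chr17:25133141-25133390, plus strand) and Snx10 (a sorting nexin needed for resorption; chr6:51523834-51524083, plus strand) lay in regions that ranked lower. Rcan1 and Tnfsf13b were chosen after their values had been seen, for their AP-1 match.
Rcan1: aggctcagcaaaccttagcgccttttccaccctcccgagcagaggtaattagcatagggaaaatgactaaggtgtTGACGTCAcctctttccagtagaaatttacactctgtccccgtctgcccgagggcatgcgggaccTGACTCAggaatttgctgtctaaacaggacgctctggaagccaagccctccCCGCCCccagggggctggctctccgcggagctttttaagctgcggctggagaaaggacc
Tnfsf13b: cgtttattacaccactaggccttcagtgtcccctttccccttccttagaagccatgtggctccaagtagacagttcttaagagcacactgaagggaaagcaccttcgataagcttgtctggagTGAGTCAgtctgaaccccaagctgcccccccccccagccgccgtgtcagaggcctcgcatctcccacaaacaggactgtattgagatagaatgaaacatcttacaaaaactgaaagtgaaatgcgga
Tnip3: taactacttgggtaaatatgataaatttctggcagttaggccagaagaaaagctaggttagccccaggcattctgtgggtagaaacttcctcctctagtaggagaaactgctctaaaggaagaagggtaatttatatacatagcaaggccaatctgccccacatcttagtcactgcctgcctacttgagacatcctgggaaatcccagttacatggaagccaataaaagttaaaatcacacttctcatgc
Clcn7: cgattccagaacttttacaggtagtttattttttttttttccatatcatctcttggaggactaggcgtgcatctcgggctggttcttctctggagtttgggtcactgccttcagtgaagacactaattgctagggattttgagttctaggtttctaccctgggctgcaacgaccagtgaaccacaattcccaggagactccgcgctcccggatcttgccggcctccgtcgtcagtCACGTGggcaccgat
Snx10: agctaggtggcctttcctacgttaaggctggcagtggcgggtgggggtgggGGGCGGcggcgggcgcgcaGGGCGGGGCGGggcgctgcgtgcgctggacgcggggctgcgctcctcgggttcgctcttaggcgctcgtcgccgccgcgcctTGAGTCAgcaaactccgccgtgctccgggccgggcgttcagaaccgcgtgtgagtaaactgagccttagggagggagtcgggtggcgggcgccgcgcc

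The authors deposited a fold (the ratio of a peak's summit pileup to background) per peak and library, and these folds came from lists called separately. Each region was therefore given a percentile rank within each library, from 0 to 100 with 100 the highest, over the 47356 shared regions, once by its highest fold and once by its summed peak width. A region was called higher when the lower of its RANKL ranks exceeded the higher of its untreated ranks by at least 10 points, and lower in the reverse case. A higher rank says that a region moved up relative to the other shared regions of that library, not that its accessibility rose in absolute terms.

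The libraries were unequal. Untreated 1 had a median summit pileup of 19 over the shared regions against 41, 52 and 46 in untreated 2, RANKL 1 and RANKL 2, and 25.3% of its peaks reached a -log10 q of 5 against 44.6% to 61.3% in the other 3. In untreated 1 a single step in pileup, from 10 to 11, moved a region by 6.59 points of rank, while no step exceeded 1.90 points in the other 3 libraries. Of the 29941 regions with a peak in 3 of the 4 lists, 24224 lacked one in untreated 1, against 2244, 2151 and 1322 in untreated 2, RANKL 1 and RANKL 2. At that edge the median fold in RANKL 1 was 3.91 for regions in 3 lists and 10.4 for shared regions. The labels do not say that replicates were separate cultures, so the spread between them may be technical.

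Fold rank was higher with RANKL by at least 10 points in 1371 shared regions (2.9% of all) and lower in 1069 (2.26%). Without the 10-point gap, the groups did not overlap in 6561 regions on the higher side (13.9%) and 7506 on the lower side (15.9%). Together they are below the fraction of 0.333 in which 2 libraries would lie apart from 2 others if the labels carried no information. At a gap of 20 points 243 regions were higher (0.513%) and 98 lower (0.207%). The higher side thus outnumbered the lower among wide gaps, while the lower side was the larger when any gap counted. No region passed limma's test on normal scores of the ranks, with Benjamini-Hochberg adjustment over all 47356 regions at 0.05 (lowest adjusted p = 1 for fold). At an unadjusted p under 0.05 the test gave 855 higher (1.81%) and 305 lower regions (0.644%). Together they are below the fraction of 0.05 that this threshold allows where no region changes. With 2 libraries against 2, a two-sided exact permutation test of a single region cannot go below 0.333. The changes below are therefore described by the value in every library, and none of them passed this test.

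The spread between replicates was as large as that between groups. Fold ranks differed with an SD of 18.8 points between untreated 1 and 2 and of 13.7 points between RANKL 1 and 2. Between a RANKL and an untreated library the SD was 17.4 points (RANKL 1 and untreated 1), 9.68 points (RANKL 2 and untreated 2), 14.8 points (RANKL 1 and untreated 2) and 19.9 points (RANKL 2 and untreated 1). The median absolute difference was 11.0 points between untreated 1 and 2 and 8.01 points between RANKL 1 and 2. Between a RANKL and an untreated library it ran from 5.35 to 11.7 points. Shifts of about the 10-point gap were thus common between replicates too. The changed regions were the tail of this spread in which all 4 comparisons of libraries pointed the same way.

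**Figure D1:**
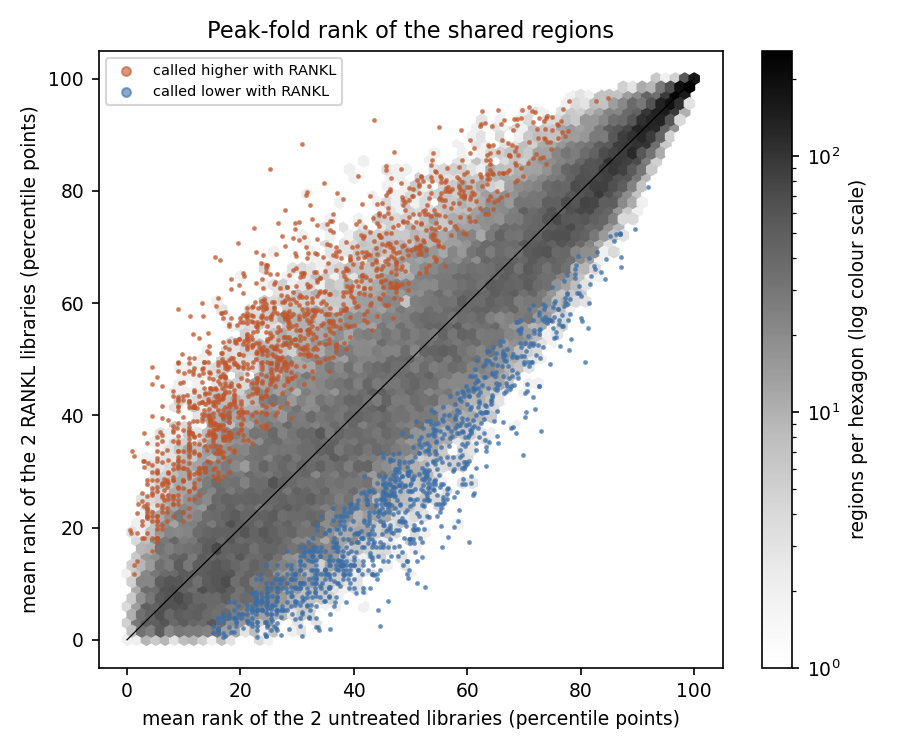
Mean fold rank of the 47356 shared regions in the 2 untreated libraries (x axis) and the 2 RANKL libraries (y axis), both in percentile points, with the line of equal rank. Grey hexagons count regions on a log colour scale, and coloured points are the 1371 regions called higher (orange, above the line) and the 1069 called lower (blue, below it). Both sets lie mostly at low and middle ranks.

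Summed peak width gave 1208 wider (2.55%) and 1208 narrower regions (2.55%) by the same rule, and at a gap of 20 points 328 (0.693%) and 203 (0.429%). limma called no region for width after adjustment. At an unadjusted p under 0.05 it gave 770 wider (1.63%) and 534 narrower (1.13%), together again below a fraction of 0.05. Height and width changed together in a small part: 173 regions were higher and wider (0.365%), 132 were lower and narrower (0.279%), and 9 regions moved in opposite directions, 5 of them higher but narrower (0.0106%) and 4 lower but wider (0.00845%). Where the width ranks only had to keep the groups apart, 575 of the higher regions (1.21% of all) and 423 of the lower (0.893%) had them in the same direction.

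The widest gaps among regions whose width ranks also kept the groups apart were at no gene of the osteoclast list among the 12 largest in either direction. The top region, chr1:151236010-151237115, 30214 bp from 3110040M04Rik, ranked 10.6 and 39.9 in untreated cells and 84.6 and 83.4 with RANKL. A region near Ranbp6 (chr19:29849558-29851723) ranked 17.2 and 44.6 and then 90.0 and 86.7. Both regions ranked low in untreated 1 and near the top in both RANKL libraries, with untreated 2 between. Without untreated 1 their mean rank changes were 31.6 and 30.5 points, against 58.7 and 57.4 with all 4 libraries. Low ranks in both untreated libraries were seen inside Me1, which encodes the cytosolic malic enzyme that makes NADPH: its region chr9:86624637-86625345 ranked 17.2 and 9.27 without RANKL and 65.3 and 54.9 with it, with summit pileups of 11 and 13 against 79 and 53. Inside Camk2d, a subunit of a calcium/calmodulin-dependent kinase, region chr3:126744290-126744920 ranked 23.6 and 25.5 and 70.6 and 62.9. In these 2 regions the groups stood 37.6 and 37.4 points apart. Among the lower regions, the widest gap was inside Arhgef10l, a guanine nucleotide exchange factor (chr4:140622605-140623671), at 66.3 and 54.3 untreated and 17.9 and 16.9 with RANKL. A region inside Map3k5, the stress kinase ASK1 (chr10:20056209-20056782), ranked 33.9 and 30.2 and 3.47 and 4.12, and its summed width was 439 and 574 bp untreated and 150 and 160 bp with RANKL. With RANKL that region was among the weakest shared peaks.

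The changed regions were unevenly spread relative to genes. Of the 8629 shared regions that held a promoter window (250 bases before to 50 after a RefSeq start), 16 were higher (0.185%) and 147 lower (1.70%). Of the 1628 regions over 100 kb from any protein-coding gene, 115 were higher (7.06%) and 26 lower (1.60%). Between these ends, the higher share was 3.24% inside genes, 2.75% within 10 kb and 4.10% at 10 to 100 kb, and the lower share was 2.34% to 2.56%. The median change in mean rank was -1.84 points at promoters and 3.59 points over 100 kb away, against -0.51 over all shared regions. Over 100 kb away RANKL 1 stood apart, with a median rank of 49.5 against 41.3, 42.3 and 43.4 in untreated 1, untreated 2 and RANKL 2. There the median change from untreated 1 and 2 was 5.63 and 5.18 points for RANKL 1, but 1.33 and 1.01 for RANKL 2.

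**Figure D2:**
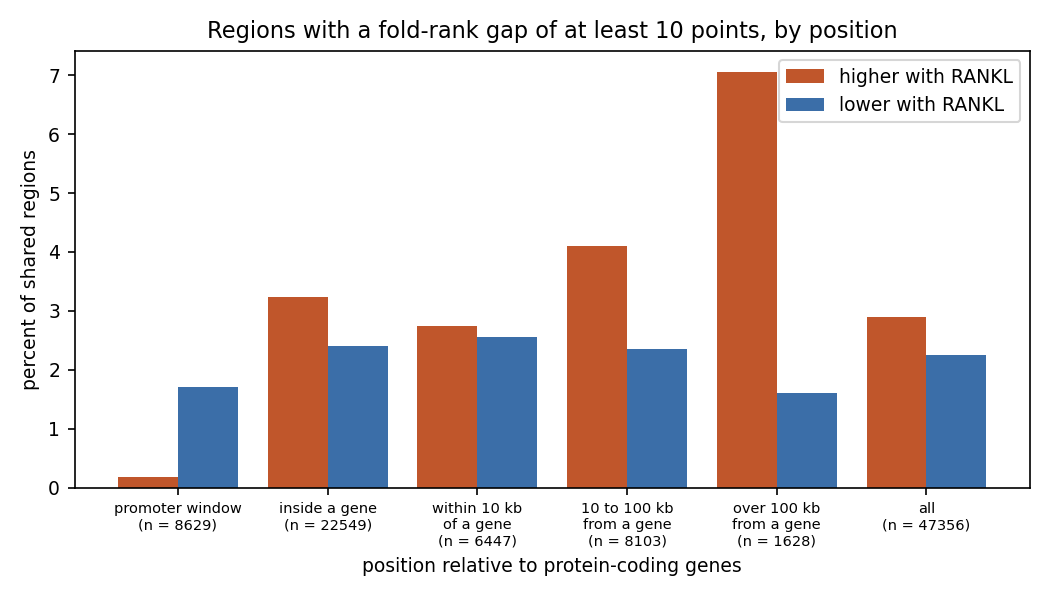
Percent of shared regions called higher (orange) or lower (blue) with RANKL, by position relative to protein-coding genes, with the number of regions under each pair of bars. The higher share runs from 0.185% at promoter windows to 7.06% over 100 kb from a gene.

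Promoter regions ranked high in every library (median mean rank 82.8), where less room is left to move up, so the positions were also compared within 5 equal bands of the mean rank, a division chosen after the data had been seen. From the lowest band to the highest, 310, 378, 699, 2130 and 5112 promoter regions fell in each, of which 0.968%, 1.32%, 0.429%, 0.141% and 0.0391% were higher, against 1.81%, 4.98%, 4.66%, 2.57% and 0.465% of all regions in the band. Lower were 3.55%, 7.67%, 6.58%, 2.63% and 0.0978% of them, against 2.62%, 4.12%, 3.20%, 1.29% and 0.0634% of all. Within every band promoters thus held a smaller share of higher and a larger share of lower regions, and the highest band, with most promoters, had few changes of either kind. Over 100 kb from a gene, 3.89%, 10.3%, 9.68%, 5.81% and 1.29% were higher and 1.20%, 2.12%, 2.30%, 1.22% and 0% lower. The single library pairs did not all show the promoter change. The median was -2.86 points for RANKL 1 against untreated 1, -0.67 for RANKL 2 against untreated 2 and -4.76 for RANKL 2 against untreated 1. For RANKL 1 against untreated 2 it was 0.57. From the lowest band to the highest, that last pair had promoter medians of -1.25, -2.25, -4.89, -0.11 and 0.87 points. Median promoter rank was 87.3 in untreated 1 and 81.6, 83.2 and 80.6 in untreated 2, RANKL 1 and RANKL 2, so that untreated 1 stood apart. Without it 1.35% of promoter regions were higher and 2.28% lower, against 8.50% and 8.24% of all regions then shared. Leaving out untreated 2 gave 2.31% and 16.0% at promoters against 17.0% and 17.0% of all regions, leaving out RANKL 1 gave 0.774% and 5.09% against 6.80% and 6.46%, and leaving out RANKL 2 gave 1.17% and 8.16% against 9.04% and 9.62%. With 1 library left out, promoters thus held a smaller share than all regions in both directions, with no division by bands. Over 100 kb from genes the higher share was 15.0% without untreated 1, 25.4% without untreated 2, 11.5% without RANKL 1 and 21.5% without RANKL 2, above the share of all regions each time. Without RANKL 1, however, the lower share there was 7.18%, also above that of all regions (6.46%), and the median change was 1.20 points.

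The promoters that ranked higher included that of Rcan1, whose region chr16:92397593-92401085 ranked 76.4 and 78.9 untreated and 91.8 and 89.4 with RANKL. At Tnfsf13b the ranks were 71.9 and 77.4 and 87.9 and 89.6. At Tnip3 they were 61.1 and 67.6 and 82.8 and 83.4. All 3 regions ranked above the median in all 4 libraries. Without untreated 1 the mean change at Tnip3 was 10.3 points in place of 18.8. The Clcn7 promoter region ranked 90.7 and 77.8 untreated and 66.1 and 62.3 with RANKL. That of Snx10 ranked 70.8 and 62.2 and 50.2 and 49.6. Zeb2, a transcription factor of myeloid identity, had 64.7 and 61.6 and 36.7 and 47.1 at a promoter region, and Uqcrc1, a subunit of respiratory complex III, had 91.2 and 88.1 and 74.1 and 72.4. Without untreated 1 the mean changes at Clcn7, Snx10 and Uqcrc1 were -9.27, -9.27 and -9.92 points in place of -20.0, -16.6 and -16.4. The AP-1 motif printed in capitals above for Rcan1, Tnfsf13b and Snx10 occurred in 5 of the 19 promoter windows in higher regions (26.3%), in 12 of 180 in lower regions (6.67%), in 4.71% of 10986 windows in any shared region and in 6.99% of all 21263 windows. Some genes have several overlapping windows, so these counts hold the same site more than once, as at Tnfsf13b. The narrow NF-kB form was in 2 of 19 windows in higher and 4 of 180 in lower regions, against 1.77% of windows in shared regions, and the Sp1 motif was in 42.1%, 71.7% and 66.6%.

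Regions were next assigned to the nearest protein-coding gene within 100 kb, which covered 45728 shared regions, of which 2.75% were higher and 2.28% lower, with a median change of -0.60 points. The gene lists below were read against these values. The largest higher share among the lists of pathways was at NF-kB genes, with 10 of 129 regions (7.75%) at 7 genes, beside 2 lower regions. Inflammatory cytokine genes had 5 of 87 (5.75%), osteoclast genes 7 of 133 (5.26%) and genes of Myc and ribosome biogenesis 4 of 77 (5.19%). The largest lower shares were at genes of oxidative phosphorylation, with 4 of 67 (5.97%), and at osteoclast repressors, with 5 of 91 (5.49%). AP-1 and early response genes had 3 of 162 higher (1.85%) and 0 lower, and the RANK receptor with its proximal signalling had 3 and 4 of 128. Interferon response genes had 1 higher and 2 lower of 57, BET and elongation genes 1 and 0 of 78, and other proton pump and lysosome genes 2 and 3 of 96. These lists are small, and a difference of 2 or 3 regions changes their order.

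**Figure D3:**
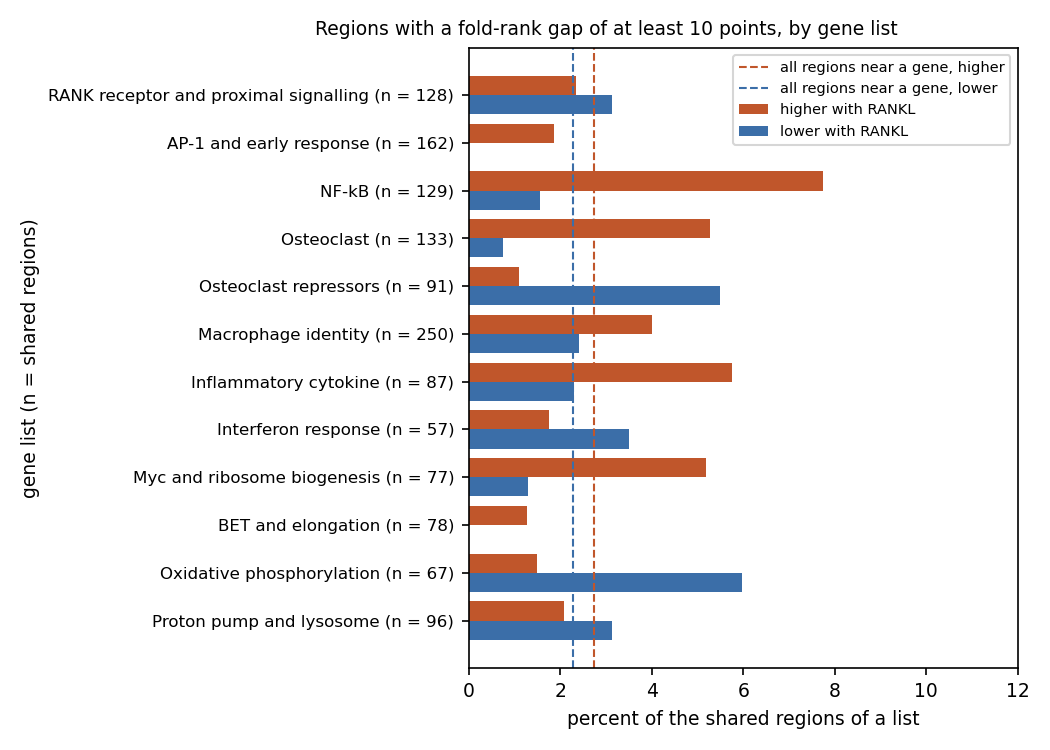
Percent of the shared regions of each gene list called higher (orange) or lower (blue) with RANKL, with the number of regions of the list in brackets. Dashed lines give the shares over all regions within 100 kb of a gene, 2.75% higher and 2.28% lower.

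Among receptors and proximal kinases, the genes of RANK itself (Tnfrsf11a, 13 shared regions) and of its adaptor Traf6 (3 regions) had no changed region. The Tnfrsf11a promoter region ranked 68.1 and 77.0 in untreated cells and 64.9 and 78.6 with RANKL, and that of Traf6 85.9 and 78.9 and 83.0 and 78.2, so that at both the groups overlapped. Higher regions lay at Ikbkb (a kinase of the IkB kinase complex), Tab2 (an adaptor of the kinase TAK1) and Mapk14 (the p38 kinase). The Tab2 region chr10:7923368-7923924 ranked 10.6 and 18.6 and 40.8 and 38.1. At Ikbkb, region chr8:22693010-22694009 ranked 72.3 and 83.7 and 93.9 and 98.2, among the strongest regions in both RANKL libraries, and its mean change was 8.19 points without untreated 1 in place of 18.1. Lower regions lay at Map3k14, the NIK kinase of the non-canonical NF-kB route, and at Plcg2 and Tec, which act in calcium signalling. The pair at Map3k14 ranked 51.2 and 43.5 untreated and 32.0 and 24.5 with RANKL (chr11:103253362-103254164), and 41.3 and 39.9 and 17.9 and 16.9 (chr11:103271785-103272495). The replicates of both groups lay closer together at the latter region.

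At NF-kB genes the higher regions included those at Nfkb1 (3 of 13 regions), Nfkbiz (2 of 11), Rel, Tnfaip3, Birc2 and Tnip3. Nfkb1 encodes the p50 subunit, and its 3 regions were weak peaks without RANKL. Region chr3:135674584-135675129 ranked 1.37 and 9.27 untreated and 28.2 and 35.7 with RANKL. Region chr3:135688898-135689682 ranked 1.37 and 20.3 and 30.8 and 42.4, and region chr3:135733891-135734509, 41922 bp outside the gene, 4.94 and 5.58 and 28.2 and 28.9. Without untreated 1 the change at the middle one of these was 16.6 points in place of 25.7. In untreated 1 their summit pileups were 8, 8 and 9, close to the lowest that was called there. Nfkbiz encodes an inducible nuclear cofactor of NF-kB; its region chr16:55776213-55776854 ranked 23.6 and 30.2 and 50.2 and 52.7, and chr16:55730793-55731639 ranked 51.2 and 51.7 and 64.9 and 65.7. At the latter the libraries of each group lay closest together. The subunit genes Rela and Nfkb2 and the inhibitor gene Nfkbia had no changed region. The Nfkbia promoter region ranked 95.8 and 97.2 and 97.2 and 99.5, and that of Nfkb2 95.2 and 99.7 and 96.6 and 99.6. Both were near the top of the ranking in all 4 libraries. The lower regions of the list were at Cd40, a co-stimulatory receptor, and inside Tnip3, whose promoter region was higher.

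Of the AP-1 genes, Jun had 1 higher region of 7, and Fos (14 regions), Junb (1) and Fosl2 (7) had none. The Jun region chr4:95101598-95102344, 49376 bp from the gene, ranked 17.2 and 14.9 untreated and 42.7 and 44.3 with RANKL. Its groups stood 25.5 points apart, in the same ranks that chose the region. The promoter regions of these genes were already at the top: that of Jun ranked 99.4 and 97.9 and 99.7 and 97.9, that of Fos 94.5 and 92.8 and 92.8 and 92.2. The other 2 higher regions of the list were at Batf3, an AP-1 partner of the BATF family, at 37.9 and 44.6 against 73.2 and 54.9 and at 29.1 and 28.7 against 53.1 and 42.4. The change at the first of them was 22.8 points, but 13.9 without untreated 1 and 13.2 without RANKL 1. At Jun it was 27.5 points, and 30.8 without untreated 1. Myc, an early target in this system, had 7 shared regions and no changed one.

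Among osteoclast genes, higher regions lay at Nfatc1 (2 of 17 regions), Mitf (2 of 19), Dcstamp, Atp6v0d2 and Itgav, and 1 lower region lay at the Clcn7 promoter. Outside Nfatc1, region chr18:80550115-80551948 ranked 17.2 and 55.1 untreated and 74.9 and 74.5 with RANKL, with summit pileups of 11 and 47 and 107 and 90. Within the gene, the long region chr18:80639227-80647220 ranked 17.2 and 31.8 and 47.1 and 67.7. At the first region the untreated libraries lay far apart and the RANKL libraries together; at the second both groups were spread. Without untreated 1 the mean rank changes were 13.4 and 20.5 points, against 38.5 and 32.9 with all 4 libraries. Mitf encodes the transcription factor that acts with Nfatc1 at osteoclast genes. Its region chr6:97884554-97885356 ranked 4.94 and 22.0 and 48.7 and 50.4, with a width of 150 and 452 bp against 783 and 694 bp. In untreated 1 a width of 150 bp ranked 1.60, at the low end of the widths there. Another Mitf region, chr6:97995397-97996347, ranked 33.9 and 41.1 and 59.6 and 56.8. The Mitf groups stood 26.7 and 15.7 points apart, and without untreated 1 the mean change at the second was 12.9 points in place of 20.7. Dcstamp, the transmembrane protein needed for precursor fusion, had 41.3 and 37.3 and 54.4 and 53.4 at chr15:39745378-39746749. Atp6v0d2, a proton pump subunit also required for fusion, had 23.6 and 23.8 and 62.1 and 41.4 at chr4:19918725-19919434, a mean change of 28.1 points that was 17.6 without RANKL 1. The late enzyme genes Acp5 (4 regions) and Ctsk (4) and the receptor gene Oscar (1) had no region changed in height; the Oscar region was wider. At the Acp5 promoter the ranks were 64.7 and 28.7 and 19.5 and 33.1, and at Ctsk 56.2 and 16.8 and 43.6 and 15.2, with overlapping groups in both.

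The list of other proton pump and lysosome genes had its 2 higher regions outnumbered by 3 lower ones. At Atp6v1b2, a subunit of the same pump, the gene's single shared region (chr8:69114781-69116106) ranked 23.6 and 25.5 and 71.3 and 47.1 and was 381 and 426 bp wide untreated and 1055 and 992 bp with RANKL. Its mean change was 34.7 points, and 22.2 without RANKL 1. Lower regions lay at Ctsl, which encodes the lysosomal protease cathepsin L, and at the Snx10 promoter. The Ctsl regions ranked 56.2 and 57.5 untreated and 38.7 and 30.4 with RANKL (chr13:64373508-64374190), and 44.2 and 46.9 and 26.9 and 27.5 (chr13:64378459-64379134). The list thus had no common direction.

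Of the 5 lower regions of the repressor list 3 were at Irf8, the macrophage transcription factor that restrains Nfatc1. It had 14 shared regions, and its 3 lower ones were a count that put it among the 8 genes with the most lower regions. Inside the gene, region chr8:120745152-120745767 ranked 53.0 and 37.3 untreated and 24.0 and 16.9 with RANKL. Outside the gene, region chr8:120763150-120763808 ranked 68.1 and 70.3 and 58.0 and 56.2, and region chr8:120800251-120800973 ranked 33.9 and 30.2 and 9.87 and 11.9. Replicates lay closer together at the regions outside the gene than at the one inside. The Irf8 promoter region overlapped between groups at 82.4 and 67.0 and 72.0 and 70.1. Over its 14 regions the median change was -9.67 points. Prdm1 had 1 lower region of 7, chr10:44598814-44600350, 70256 bp from the gene, at 37.9 and 36.0 and 8.22 and 18.5. Prdm1 is counted in this list although it acts against the other repressors. Irf2 had 1 region in each direction among 21. Bcl6 (5 regions), which also restrains the osteoclast fate, had none.

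**Figure D4:**
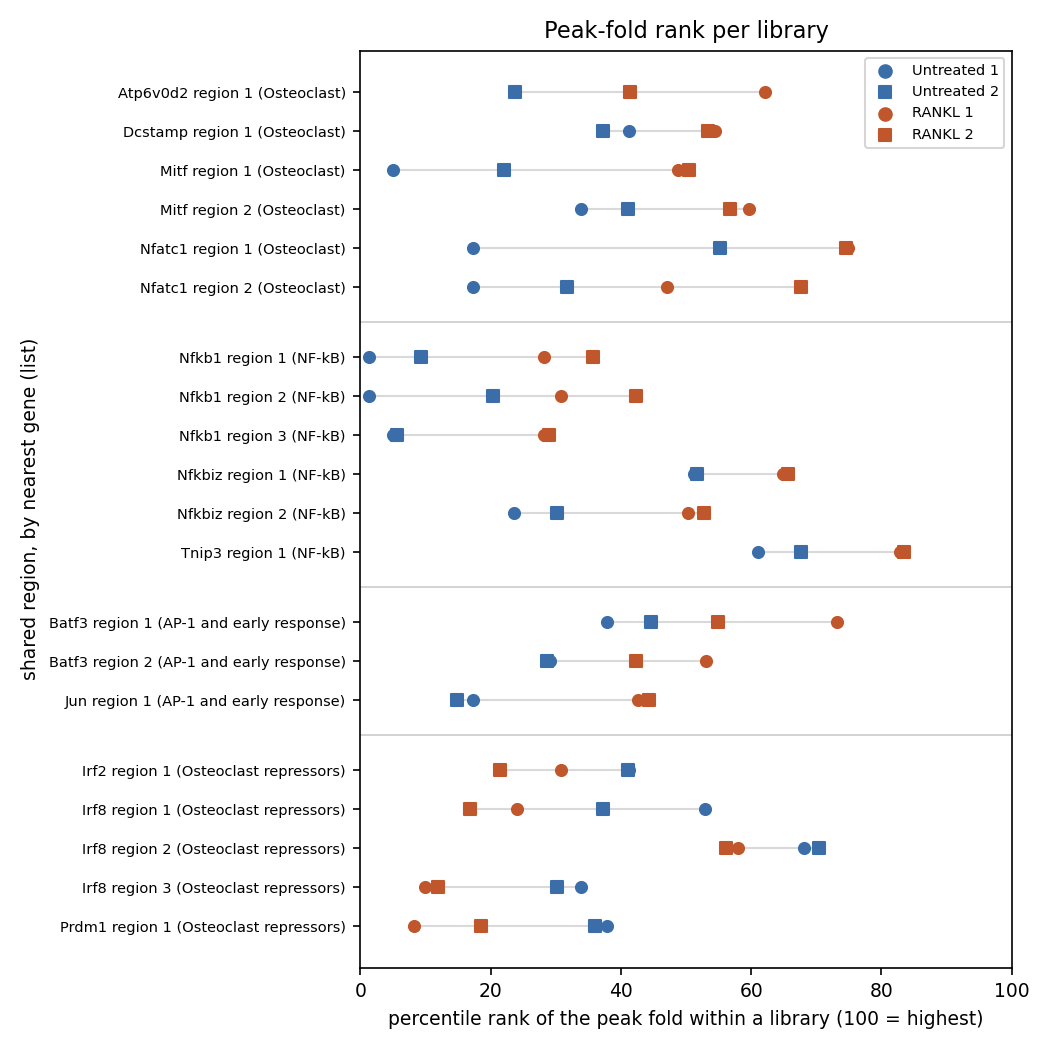
Fold rank in each library (x axis, percentile points; blue untreated, orange RANKL; circles replicate 1, squares replicate 2) of changed regions at up to 4 genes per list and direction that are described here, for osteoclast, NF-kB, AP-1 and repressor genes. By the rule that chose the regions, all orange points lie to the right of the blue ones in the upper 3 blocks and to the left in the lowest, and untreated 1 is the lowest point of each of the Nfatc1, Mitf and Nfkb1 regions.

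Beyond these lists, higher regions of the inflammatory list lay at Ptgs2 (the prostaglandin synthase COX-2; 2 of 5 regions), Il12b, Il1rn and Osm, and lower ones at Il10 and Lif. The stronger Ptgs2 region, chr1:150150800-150151878, ranked 64.7 and 70.9 and 89.7 and 86.7, and its mean change was 11.5 points without untreated 1 in place of 20.4. At Odc1, a Myc target whose product starts the synthesis of polyamines, 3 of 10 regions were higher, such as chr12:17509475-17511769 at 65.5 and 82.7 and 93.5 and 93.2, where the mean change fell from 19.2 to 7.05 points without untreated 1. The oxidative phosphorylation list had its lower regions at Uqcrc1, Cox5a and Nrf1 (2), the last a transcription factor of respiratory genes, and its higher region inside Ppargc1b, a coactivator of mitochondrial biogenesis, at 10.6 and 30.2 and 45.4 and 56.2 (a mean change of 30.3 points, and 17.3 without untreated 1). Brd2, a BET protein, had no shared region assigned to it. Macrophage identity genes had 10 higher and 6 lower regions of 250 (4.00% and 2.40%), at 6 genes in each direction. Among them were 3 higher at Klf6, 2 higher with 1 lower at Runx1 and 1 lower at Cebpa. The Cebpa region, chr7:35144354-35144912, ranked 33.9 and 25.5 untreated and 0.437 and 7.09 with RANKL. Spi1 and Csf1r, which define the lineage, had 6 shared regions each and none changed.

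Leaving out a library changes which regions are shared and asks for agreement of 3 libraries, so the counts over all regions grow, and list shares are given beside those of all regions near a gene. At NF-kB genes the higher share was 13.1% without untreated 1, 18.1% without untreated 2, 13.5% without RANKL 1 and 13.6% without RANKL 2, against 8.20%, 16.7%, 6.64% and 8.59% of all regions near a gene. At osteoclast genes it was 12.3%, 26.1%, 10.3% and 7.75%, so that without RANKL 2 it was below the background. The lower share at repressor genes was 13.5%, 18.4%, 12% and 16.2%, against 8.34%, 17.0%, 6.44% and 9.79%. For the inflammatory list the higher share was 20.6%, 23.1%, 14.3% and 13.2%, and for oxidative phosphorylation the lower share was 15.3%, 26.1%, 11.3% and 14.7%, above the background in each setting. The 85 higher and 63 lower regions that the naming rule picked by these ranks had median changes of 26.3 and -21.8 points, and of 21.5 and -20.4 without untreated 1. Where a changed region is described by its ranks, a change that fell by over 1.5 times without a library is given there too. Rcan1, Tnfsf13b and regions named without ranks are given without such values. Promoters were a varying part of the lists: 18 of the 67 regions of oxidative phosphorylation and 15 of the 133 of osteoclast genes held a promoter window.

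Genes with the most higher regions were Camk2d, Ptpn22, Pcdh7, Exoc2 and Dlg2, with 4 each and none lower. In this order they had 17, 7, 11, 9 and 12 shared regions. Ptpn22 encodes a tyrosine phosphatase of immune signalling, and 4 of its 7 shared regions were higher. The strongest of them, chr3:103872426-103873058, ranked 51.2 and 69.8 untreated and 86.4 and 87.2 with RANKL. Another Camk2d region, chr3:126827434-126828625, ranked 54.7 and 76.1 and 93.0 and 95.8, near the top of the ranking in both RANKL libraries. Dlg2 and Pcdh7 are long genes whose changed regions lay inside the gene body, such as chr7:91767492-91768370 in Dlg2 at 23.6 and 43.5 and 68.4 and 79.3. Without untreated 1 the mean changes at these regions of Ptpn22, Camk2d and Dlg2 were 11.3, 12.1 and 21.8 points, in place of 26.3, 29.0 and 40.3. Wdr7, Gipc2 and Bcas1 had 3 higher regions each, of 7, 15 and 20 shared ones. The genes listed were cut at 8 per direction, with ties ordered by their summed gaps. Nfkb1, Klf6 and Odc1, also with 3 higher regions each, thus fell outside the cut. With 3 lower regions each, Irf8 was joined by Incenp, Ehd4, Rbm47 (with 1 higher), LOC115489489, Ppp1r26, Pla2g4a and Ramp1. In this order, Irf8 first, they had 14, 9, 12, 27, 8, 11, 13 and 5 shared regions. Ehd4, a regulator of endocytic membrane traffic, had for example chr2:120136912-120137832 at 56.2 and 49.9 and 21.0 and 28.9. Pla2g4a, the cytosolic phospholipase that releases arachidonic acid, had chr1:149955392-149956158 at 51.2 and 47.9 and 26.9 and 31.8.

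Lists of markers were set beside the label of the cells. All 27 macrophage identity genes had a shared region, against 5 of 10 B lymphocyte, 8 of 11 T lymphocyte, 5 of 13 fibroblast and osteoblast and 6 of 13 granulocyte and erythroid genes. Of all 21887 protein-coding genes, 14176 had one. The share of T lymphocyte genes was thus not below that of all genes, and these counts do not by themselves identify the cells. B lymphocyte (15 regions) and granulocyte and erythroid genes (7) had no changed region, T lymphocyte genes had 1 in each direction of 20, and fibroblast and osteoblast genes had 1 higher and 2 lower of 13. These 5 regions were at Gata3, Sp7, Tcf7, Col1a1 and Pdgfrb. An open region near a marker gene does not measure its expression, and the part of other cells in these values was not tested.

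The 3 libraries with I-BET took no part in choosing the regions, and their ranks over the same shared regions are set beside the others as a description. The 1371 higher regions had a median rank of 23.6 in untreated 1, 31.8 in untreated 2, 56.3 in RANKL 1 and 52.7 in RANKL 2, the values that chose them. In RANKL with I-BET the medians were 45.7 and 52.2, and in I-BET without RANKL 33.3. The 1069 lower regions had 51.2 and 43.5 untreated, 21.0 and 24.5 with RANKL, 27.4 and 29.1 with RANKL and I-BET, and 33.3 with I-BET. Over all shared regions each library's median was between 49.2 and 50.5. The libraries with both agents thus lay nearer to the RANKL medians in both sets. The single I-BET library had the same median, 33.3, in both sets, so its median did not tell higher from lower regions. The untreated and RANKL medians are set apart by the choice of regions, so distances to them are not a like comparison. Regions without a peak in a library have no rank there, and at least 95.7% of the changed regions had a peak in each library. Of all shared regions, 96.5% and 99.9% had a peak in the libraries with both agents and 95.4% in that with I-BET, much the same.

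**Figure D5:**
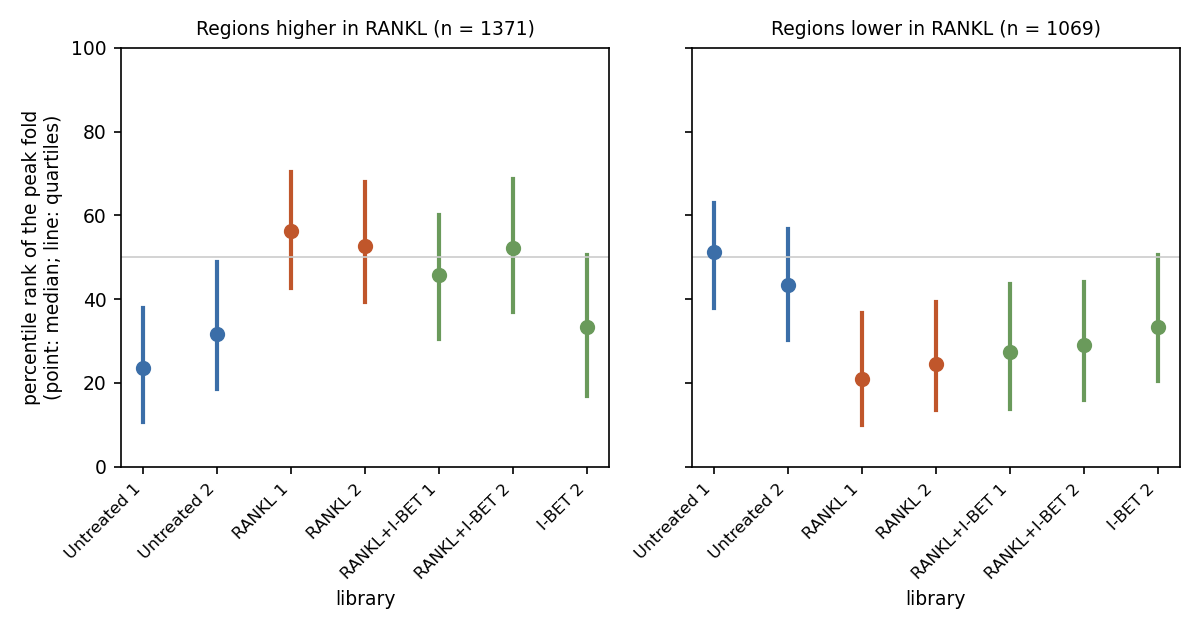
Fold rank within each of the 7 libraries (y axis, percentile points) of the 1371 regions called higher (left) and the 1069 called lower (right) with RANKL. Points are medians and lines run between quartiles, in blue for untreated, orange for RANKL and green for libraries with I-BET; the untreated and RANKL values chose the regions, and the medians with both agents are 45.7 and 52.2 on the left and 27.4 and 29.1 on the right.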

How the data were processed

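ATAC-seq peaks of 4 libraries (untreated 1 and 2, RANKL 1 and 2) were compared; the 3 libraries with I-BET were used only for side-by-side ranks. The build was mm10; the submitters' processing notes name Bowtie2, SAMtools and Picard besides FastQC and cutadapt, with MACS2 and bedtools, and versions and settings are not given in the sources used here. Every library has its own deposited list, not one called on pooled samples. Each deposited line holds a fold (a ratio of summit pileup to background), a -log10 p, a -log10 q and a score. Read counts are not given, so depth is known only through the pileup. The deposited folds of a library were whole multiples of 1 step in 100% of peaks (within 0.02), so background was constant within a library, the summit pileup is the fold divided by that step less 1, and ranking by fold and by -log10 p is the same.

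Peaks overlapping by at least 1 bp or adjoining were merged (Python 3.11.15, pandas 2.3.3), and ranks were taken over regions with a peak in all 4 lists. limma 3.58.1 (R 4.3.3, with lmFit, eBayes with trend, two-sided, Benjamini-Hochberg) was run on normal scores of the ranks. No replicate block was used, since the labels do not say that numbers mark pairs. The simulated data on which limma was checked had equal noise in every library, so they do not say what it can find in these unequal libraries. Each region took the gene body closest to it among 21887 protein-coding ones within 100 kb from a RefSeq table of GRCm38.p6, which gives no exons. Promoter windows of 300 bases came from RefSeq. Of 325 genes in 16 lists, 323 were in the table. Genes named in the text are the 12 regions per direction with the widest fold-rank gap whose width ranks also kept the groups apart, up to 4 members per list and direction, 27 genes named in every case, and the 8 genes with the most changed regions per direction; some are not reported here. The members, the lists and these rules were chosen with earlier results of these data known.

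Alternatives were a replicate block, gaps above 0 and of 20 points, -log10 p, peaks with a -log10 q of at least 5, peaks covering at least 50% of a region, regions with 1 peak per library, log2 values in place of ranks, genes within 50 kb and leaving out each library.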

Additional observations from a re-analysis of the deposited data

How the results depend on the processing

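Ranking by -log10 p gave the same counts as ranking by fold, and no read counts are held, so no interval can be set on a rank. Untreated 1 had the lowest pileups over the shared regions, and its weak peaks move by up to 6.59 points of rank for 1 step in pileup. limma's count of adjusted calls, 0 for fold and width, stayed 0 for both with stricter peaks, the 50% cover, single peaks and log2 values, and for fold with -log10 p, which has no counterpart for width. With the replicate block it was 532 for fold (514 higher, 18 lower) and 0 for width. Leaving out 1 library gave 0 to 2090 for fold and 0 to 2 for width; the 2090 came without untreated 2, with a lone untreated library assumed to vary like the other group. The numbers 1 and 2 are not stated to mark pairs: the changes of the same-numbered libraries had a Pearson correlation of 0.21 across regions for fold (0.06 for width) and those of the crossed numbers -0.25 (-0.19), while the differences of number 1 from number 2 in the groups had 0.42 (0.24).

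For higher fold rank (1371 regions) the count was 6561 at any gap, 243 at 20 points, 2693 by the replicate block (10 points in both same-numbered pairs), 854 with peaks of -log10 q of at least 5, 753 with the 50% cover, and 3371 to 8488 with 1 library left out. For lower fold rank (1069) these were 7506, 98, 2295, 619, 500 and 3202 to 8496. For wider regions (1208) they were 6381, 328, 2208, 595, 402 and 3619 to 7540, and for narrower ones (1208) 7938, 203, 2306, 639, 383 and 3571 to 8028. The stricter sets held fewer regions (29260 and 29762). Of promoter regions, 2.42% were lower with stricter peaks; leaving out 1 library gave 0.774% to 2.31% higher and 2.28% to 16.0% lower. Over 100 kb from a gene, 5.25% were higher with the 50% cover, and leaving out 1 library gave 11.5% to 25.4% higher and 4.90% to 15.1% lower. With genes within 50 kb the lists held 44 higher and 32 lower of 1305 regions, against 50 and 33 of 1401. Without untreated 1 the mean rank change of 89 named regions moved by more than the replicate SD and that of 76 did not. With peaks of -log10 q of at least 5, 57 moved and 28 did not, and with the 50% cover 24 and 62. The remaining named regions overlapped no shared region in these 2 stricter sets and have no value there. The causes of these differences were not tested.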

Other observations

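Changed regions differed in number between chromosomes. On chromosome 11, 1.65% of 3586 shared regions were higher and 3.46% lower, and on chromosome 17 1.90% of 2100 were higher and 3.29% lower. Chromosome 18 had 4.37% higher and 1.15% lower of 1303, and chromosome 3 had 4.17% and 1.69% of 2780. Neighbours tended to share a direction: of the shared regions within 10 kb of a higher region, 5.49% were higher and 1.89% lower, and of those within 10 kb of a lower region, 1.83% were higher and 4.65% lower. Near regions that did not change, 2.43% and 2.54% were higher and lower. Neighbouring regions of a library are not independent, so these values are a description.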
